A study of Drosophila melanogaster with 24 samples.

Results

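Glutathione S-transferases (GSTs) of Drosophila melanogaster were examined in adult whole females of selected and control lines. The family members were all probe sets of the array whose annotation names a single gene with a current symbol beginning with Gst. This rule gave 36 of the 13966 probe sets that are not array controls, for 34 of the 10844 genes that a probe set names alone. The Delta subfamily had 11 genes, Epsilon 14, Omega 3, Sigma 1, Theta 3 and Zeta 2. GstO2 was the gene with several probe sets, 3 of them. GstT1 was not analysed here.

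The series holds 24 Affymetrix arrays in 8 groups of 3 lines, 1 array per line. Of the 7 regimes, 5 were selected for resistance, to heat, cold, knock-down, starvation or desiccation, 1 was selected for longevity, and 1, named constant 30, is described by the labels as flies held at 30 degrees. The control lines were not selected. Each extract came from the 10 females of a vial, and cDNA was made from 5 microgram of total RNA with oligo-dT priming. What form of knock-down was used, for how many generations the lines were kept, how old the females were and when arrays were scanned is not given in the sources used here. Lines of a group are called biological replicates, and p-values therefore measure the spread between these lines.

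GSTs join the tripeptide glutathione to electrophilic compounds, which makes them more soluble and prepares them for export from the cell. The Delta and Epsilon classes are particular to insects and their relatives, lie in gene clusters that arose by tandem duplication, and are best known for the detoxification of insecticides and plant compounds. The other classes are shared with vertebrates. Sigma is abundant in insect flight muscle, where it acts on products of lipid peroxidation, Omega enzymes reduce dehydroascorbate and mixed disulfides, Zeta enzymes act in the breakdown of tyrosine, and Theta enzymes conjugate small halogenated compounds in mammals.

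By gene order in the Release 6 annotation, 10 Epsilon genes were direct neighbours, in the order GstE10, GstE1, GstE2, GstE3, GstE4, GstE5, GstE6, GstE7, GstE8 and GstE9. Likewise 10 Delta genes were neighbours, in the order GstD10, GstD9, GstD1, GstD2, GstD3, GstD4, GstD5, GstD6, GstD7 and GstD8. The 3 Omega genes formed a run with se, the Omega enzyme that makes a precursor of the red eye pigments, and GstZ1 lay beside GstZ2. Neighbours of recent origin have similar sequences, and the probe sets were designed on an early genome release, so signal shared between paralogs cannot be told apart from signal of the named gene.

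All values are the authors' log2 intensities from GCRMA, which removes background and normalizes between arrays. Only probe sets with a value over 4 on 3 or more of the 24 arrays were tested, 9023 in number. Of the 36 GST probe sets 28 qualified, for 26 genes: 5 Delta, 12 Epsilon, 3 Omega, 1 Sigma, 3 Theta and 2 Zeta. The 8 that did not were GstD4, GstD6, GstD7, GstD8, GstD10, GstD11, GstE4 and GstE14. GstE14 is known as the ecdysteroid synthesis gene noppera-bo. Their values lay between 2.92 and 4.05 on all arrays, with 1 value above 4, and their group means spanned at most 0.18. Calls were made with limma at a Benjamini-Hochberg adjusted p under 0.05 over the 9023 probe sets.

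The arrays resembled each other closely, with correlations of 0.986 to 0.995 between lines of a group and 0.978 to 0.996 between lines of different groups. The median correlation was 0.992 in both cases. Array medians lay between 5.46 and 5.57. Markers of females were high and markers of males low, as the labels have it. The mean of the 3 yolk protein genes lay between 13.78 and 14.40 on the 24 arrays, and the mean of 14 male accessory gland and testis genes lay between 2.50 and 2.80. The samples are whole flies, so fewer cells of a type and less RNA per cell cannot be told apart in any difference below.

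GstE2 rose in the knock-down selected lines. It was 2.21-fold higher there than in control, its values were above those of each other regime too, and it was the 1 member called against control in any regime. GstE2 is an Epsilon enzyme. A mosquito Epsilon enzyme of the same name breaks down DDT, but the form of knock-down used here is not given. In the knock-down selected lines 1, 2 and 3 its log2 values were 5.89, 5.65 and 6.01. In the control lines they were 4.81, 4.51 and 4.80. All 3 knock-down selected lines were above the highest control line.

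Among the other regimes GstE2 stood at 5.18, 5.10 and 4.83 in heat selected lines, at 5.25, 4.69 and 4.97 in constant 30 lines, and at 4.69, 5.07 and 4.98 in cold selected lines. It stood at 4.82, 4.83 and 4.59 in longevity selected lines, at 5.01, 5.56 and 4.80 in starvation selected lines, and at 4.53, 4.75 and 5.15 in desiccation selected lines. Every knock-down selected line was above all 21 other lines of the series, of which starvation selected line 2 came nearest. Group means were 5.85 ± 0.18 in knock-down selected lines and 4.71 ± 0.17 in control lines (SD, n = 3 each).

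The limma log2 change of GstE2 in knock-down selected lines against control was 1.14 ± 0.19 (SE, adjusted p = 0.0251). In that comparison 0.155% of the 9023 probe sets were called, and 1 of the 28 GST probe sets. Calls on the higher side were 0.144%. Against the mean of the other 6 regimes, which leaves the control arrays out, the change was 0.92 ± 0.14 (adjusted p = 0.0260), a fold of 1.89. GstE2 was the 1 probe set called there out of 9023 (0.0111%). Knock-down selected lines minus each other group gave differences of 0.73 (starvation selected) to 1.14 (control), each with an SE of 0.19. The call against control was lost without control line 1, control line 2, knock-down selected line 2 or knock-down selected line 3, where the adjusted p reached up to 0.171, while the change stayed between 1.04 and 1.24, and none of the 9023 probe sets was called in these 4 fits. It was also lost with the fit on the compared arrays alone (adjusted p = 0.151). The call against the other 6 regimes was lost without knock-down selected line 1, 2 or 3, constant 30 line 3, starvation selected line 1 or desiccation selected line 2, with changes of 0.84 to 1.02 and an adjusted p of up to 0.311. It was also lost with the arrays of the regimes alone (adjusted p = 0.0563), with the 3′ minus 5′ difference of control probe sets as a covariate (adjusted p = 0.0821) and with the replicate number as a block (adjusted p = 0.0708).

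**Figure D1:**
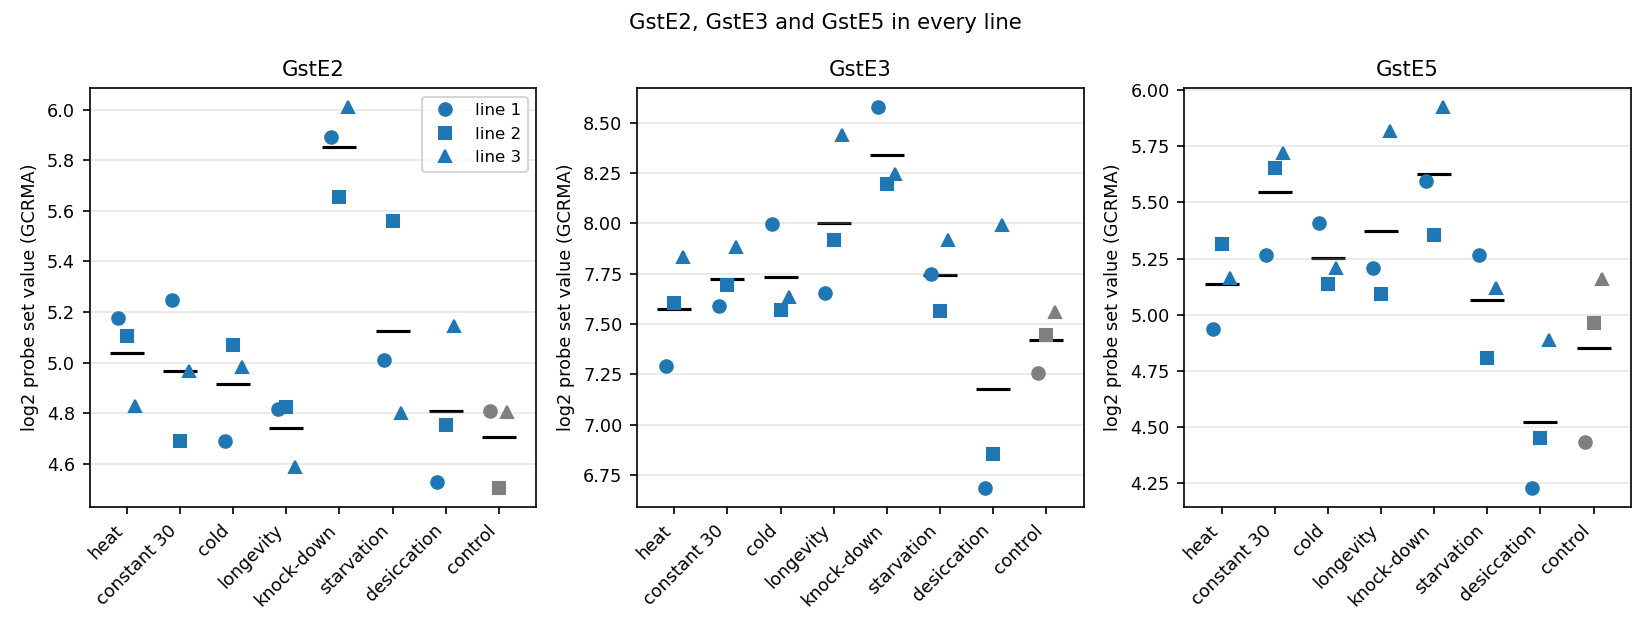
Log2 probe set values of GstE2, GstE3 and GstE5 (vertical axes) in each of the 3 lines of the 8 groups, control at the right; points are lines and horizontal bars are group means. The knock-down selected lines hold the 3 highest GstE2 values of the series, 5.65 to 6.01, and the desiccation selected lines 1 and 2 hold the lowest GstE3 values, 6.69 and 6.85.

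The neighbours GstE3 and GstE5, also Epsilon enzymes, were at or near their highest in the same lines, but their changes did not pass the test. GstE3 had values of 8.58, 8.20 and 8.24 in knock-down selected lines, against 7.26, 7.45 and 7.56 in control lines. Longevity selected lines had 7.65, 7.92 and 8.44, and overlapped with the knock-down selected ones. The groups knock-down and control did not overlap, and the GstE3 change was 0.92 ± 0.25 (adjusted p = 0.150).

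GstE5 had values of 5.60, 5.36 and 5.92 in knock-down selected lines, against 4.43, 4.96 and 5.16 in control lines, a change of 0.77 ± 0.22 (adjusted p = 0.151). The constant 30 lines had GstE5 values of 5.26, 5.65 and 5.72, a change of 0.69 ± 0.22 (adjusted p = 0.475). Neither regime overlapped with control, and the 2 regimes overlapped with each other.

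Both genes were lowest in desiccation selected lines, with group means of 4.52 for GstE5 and 7.18 for GstE3. Control lines were next, with means of 4.85 and 7.42, and overlapped with the desiccation selected lines in both genes. GstE5 stood at 4.23, 4.45 and 4.89 in the desiccation selected lines, and its change against the other 6 regimes was -0.81 ± 0.16 (unadjusted p = 8.75e-05, adjusted p = 0.116). GstE3 stood at 6.69, 6.85 and 7.99 in the desiccation selected lines, with a change of -0.68 ± 0.19 (adjusted p = 0.351). Line 3 was thus far above lines 1 and 2 for GstE3. Without it the GstE3 change was -1.08 (adjusted p = 0.0165), where 0.0332% of all probe sets were called. Of the 9023 probe sets 0.0222% were called in desiccation selected lines against the other 6 regimes, and no GST was among them in the fit on all lines. At an unadjusted p under 0.05 there were 3 of the 28, all lower (GstE2, GstE3 and GstE5), against 6.59% of all tested and 3.56% on the lower side. The other 6 regimes include the knock-down selected lines, where these 3 genes had their highest group means. The GstE2 mean in desiccation selected lines, 4.81, was above that in control lines, 4.71.

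In the knock-down selected lines, 6 of the 28 GST probe sets had an unadjusted p under 0.05 against control, all higher. They were GstE2, GstE3, GstE5, GstE10, GstE12 and GstT4. Of the 9023 probe sets 10.4% had such a p, and 6.14% of the 9023 had it on the higher side. GstE10 lay near the filter threshold of 4, at 4.11, 4.46 and 4.15 in knock-down selected lines. Its control lines had 4.03, 3.43 and 4.18 and overlapped with these. With a line left out the GstE10 change was 0.14 to 0.51. GstE12, an Epsilon gene outside the run of neighbours, had values of 9.37, 9.61 and 9.51 in knock-down selected lines and 8.81, 9.05 and 9.40 in control lines. Its change was 0.41 ± 0.12 (adjusted p = 0.158), and control line 3 reached the range of the knock-down selected lines. Without control line 3, 3 members were called in this comparison: GstE2, GstE5 (adjusted p = 0.0390) and GstE12 (adjusted p = 0.00677). The share called over all probe sets was then 2.63%. The 3 lines of the knock-down selected group did not overlap with those of control for 6 of the 28 probe sets, or 21.4%, against 15.0% of all tested. Of these, 5 were higher (GstE2, GstE3, GstE5, GstE13 and GstT4) and 1 was lower (GstS1).

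Gene lists of other tissues were also measured in these lines. The mean of 18 gut protease and related genes was 10.02 to 10.48 in knock-down selected lines and 9.69 to 10.20 in control lines, and that of 8 Malpighian tubule genes was 6.60 to 6.75 and 6.31 to 6.54. The mean of the eye genes was 7.34 to 7.60 in knock-down selected lines and 6.66 to 7.30 in control lines. The mean of 5 fat body genes was 6.31 to 6.71 in knock-down selected lines and 6.83 to 7.12 in control lines. These tubule, eye and fat body means did not overlap between the groups, but the lists were not uniform. All 7 eye genes were above control here and in each other regime, with median changes of 0.25 to 0.65 over the 7 regimes. Of the 7 tubule genes tested 3 were above control, with a median change of -0.01 and Irk3 at 0.96. Irk3 also had an unadjusted limma p under 0.05 against control in heat, cold, longevity, starvation and desiccation selected lines. Of the 4 fat body genes tested 2 were above control, with a median of 0.02 and the storage protein gene Lsp2 at -2.45. The part of these genes in the GstE2 difference was not tested.

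GstS1, the only Sigma member, was 1.47-fold higher in heat selected lines than in the other 6 regimes. Its values were 10.69, 10.63 and 10.08 in heat selected lines. They were 9.95, 10.02 and 10.03 in constant 30, 9.99, 9.90 and 10.15 in cold selected, and 9.77, 9.90 and 9.57 in longevity selected lines. The remaining regimes had 9.80, 9.93 and 9.81 (knock-down selected), 10.04, 9.60 and 9.93 (starvation selected) and 9.91, 10.06 and 9.97 (desiccation selected), and control had 10.02, 10.15 and 10.09. Heat selected lines 1 and 2 were above all other lines of the series, while line 3 lay among the control and cold selected lines.

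The GstS1 change against the other 6 regimes was 0.56 ± 0.10 (SE, adjusted p = 0.00962). It was the 1 member called of 28. In that comparison 11.1% of all tested probe sets were called, and 7.0% of all tested were called higher. The share of GSTs called was thus below the background. Against control the change was 0.38 ± 0.13 (adjusted p = 0.106), and the lines overlapped. No GST was called in heat selected lines against control, where 2.84% of the 9023 probe sets were; at an unadjusted p under 0.05 there were 3 (GstD9, GstE10 and GstS1), against 20.5% of all tested. Heat line 3 decides the call against control, since without it the change was 0.57 (adjusted p = 0.00958), where 6.55% of all probe sets were called. Without heat line 2 the call against the other 6 regimes was lost (0.48, adjusted p = 0.151), with 0.0222% of all called.

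Genes of several tissues differed in the heat selected lines along with GstS1. The mean of 12 muscle genes, all above 4, was 10.13, 10.16 and 9.38 in heat selected lines 1, 2 and 3, against 8.60, 8.83 and 9.24 in control lines and 8.48 to 9.76 in the other regimes. The heat selected line with the lowest muscle mean was also the one with the lowest GstS1 value. With the muscle mean as a covariate the GstS1 change against the other 6 regimes was 0.41 (adjusted p = 0.238). That setting left 0.0222% of all probe sets called, against 11.1%, so nearly all calls of the comparison were lost with it and not that of GstS1 alone. The covariate was chosen after seeing the data. The muscle mean was itself highest in heat selected lines 1 and 2, so muscle level and heat selection cannot be told apart here. Against control 6 of the 12 muscle genes were called higher, where 2.84% of all tested probe sets were called. The mean of 12 eggshell genes was 10.75, 11.17 and 11.97 in heat selected lines 1, 2 and 3 and 12.28, 12.12 and 11.94 in control lines. In the same comparison 3 of these 12 were called lower. The mean of 7 eye genes was 7.67, 7.70 and 7.27 in heat selected lines and 6.66, 6.71 and 7.30 in control lines, with 4 of the 7 called higher. All 7 eye genes were above control in every other regime too. In the eggshell and eye lists heat selected line 3 lay nearest to control. Of the 4 fat body genes tested 2 were below control, and the list was led by Lsp2, at -4.05. The part of the eggshell, eye and fat body genes in the GstS1 difference was not tested.

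The 3′ minus 5′ difference of control probe sets, a measure of how complete the labelled RNA is, was 1.62, 1.34 and 1.68 in heat selected lines, 1.50 to 1.93 in the other regimes and 1.74, 1.69 and 1.82 in control lines. With that difference as a covariate the GstS1 change was 0.42 (adjusted p = 0.275), again with 0.0222% of all called.

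**Figure D2:**
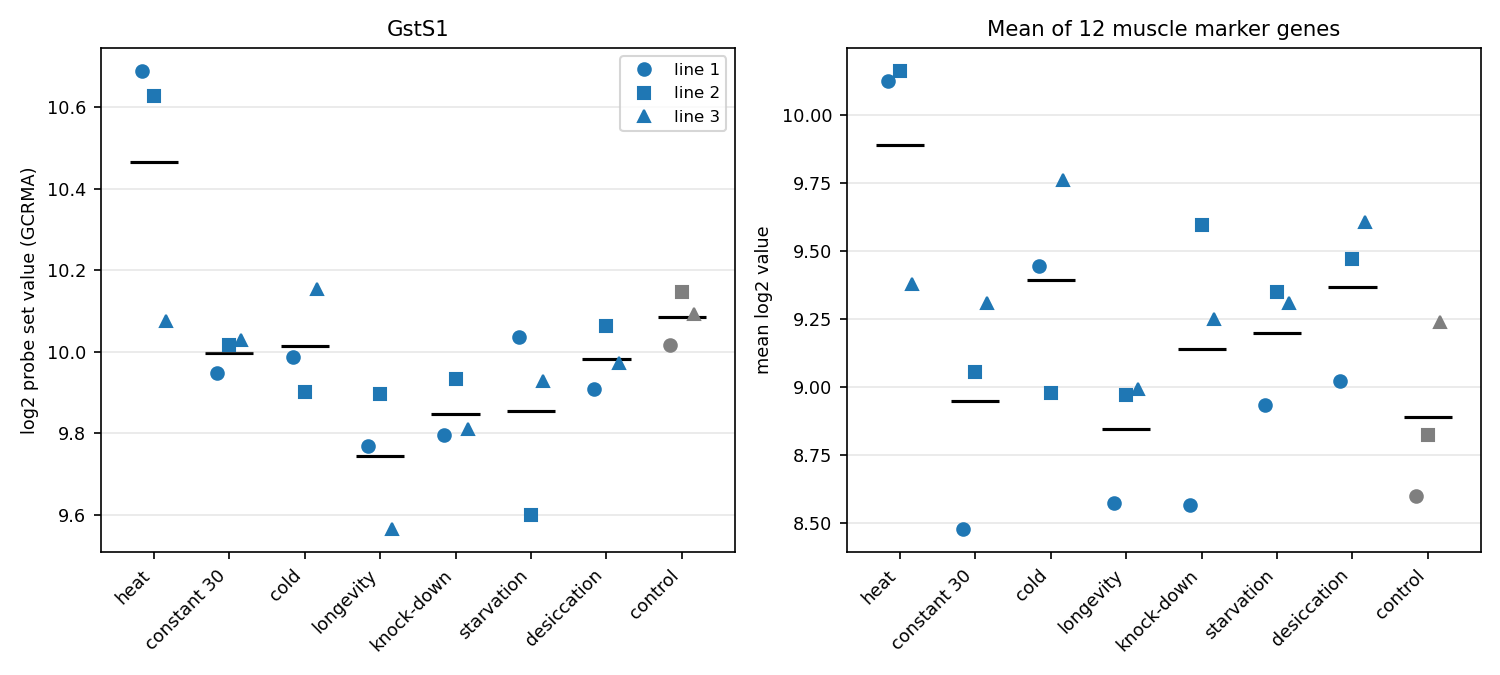
Log2 value of GstS1 (left) and mean log2 value of 12 muscle marker genes (right) in each line of the 8 groups, control at the right of each panel; points are lines and bars are group means. Heat selected lines 1 and 2 are highest in both panels, at 10.69 and 10.63 for GstS1 and 10.13 and 10.16 for the muscle mean.

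At the other end, GstS1 was lowest in longevity selected lines, where the change against control was -0.34 ± 0.13 (adjusted p = 0.531) and against the other 6 regimes -0.28 ± 0.10 (adjusted p = 0.638). Its group means were 9.74 ± 0.17 in longevity selected lines and 10.08 ± 0.07 in control lines (SD, n = 3 each), and the lines did not overlap. That difference did not pass the test. Longevity selected lines had 4 GSTs with an unadjusted p under 0.05 against control, GstE3, GstE5 and GstE12 higher and GstS1 lower, where 7.95% of all tested did.

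The Delta subfamily contained a steady member, GstD1, and the 2 members with the largest spread between lines. GstD1, an enzyme known to act on DDT, stayed between 12.89 and 13.30 on all 24 arrays, with group means of 13.21 ± 0.09 in heat selected, 13.04 ± 0.13 in constant 30 and 13.14 ± 0.12 in control lines. Its pooled SD between lines of a group was 0.09, and 21.9% of the tested probe sets had a smaller one. GstD1 was called in no comparison.

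GstD2 and GstD3, its neighbours, varied between lines of the same group. GstD2 stood at 4.96, 5.05 and 6.67 in heat selected lines, at 6.44, 4.68 and 5.02 in knock-down selected lines and at 5.78, 5.27 and 6.08 in starvation selected lines, against 5.11, 4.98 and 5.07 in control lines. In the first 2 of these regimes a single line stood far above the other 2 of its group. The pooled SD of GstD2 was 0.51, above that of 98.7% of tested probe sets, and that of GstD3 was 0.46, above 98.4%. GstD3 ran between 7.66 (knock-down selected line 3) and 9.35 (starvation selected line 2).

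GstD9 had the smallest adjusted p of the family in heat selected lines against control. Its values were 7.98, 7.54 and 8.08 in heat selected lines, 7.68, 7.68 and 7.99 in desiccation selected lines, and 7.37, 7.60 and 7.34 in control lines. The GstD9 changes were 0.43 ± 0.14 in heat selected lines (adjusted p = 0.0924) and 0.35 ± 0.14 in desiccation selected lines (adjusted p = 0.633). The desiccation selected lines did not overlap with control, and heat selected line 2 did. GstD5 was near the threshold of detection, with group means of 3.79 to 4.08.

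Across the Epsilon subfamily, most of the 12 tested genes were above control in every regime, but by small amounts. The median log2 change was 0.05 in heat selected, 0.06 in constant 30, 0.11 in cold selected, 0.16 in longevity selected, 0.20 in knock-down selected, 0.23 in starvation selected and 0.09 in desiccation selected lines. Between 8 and 9 of the 12 were above 0 in each regime. The 7 comparisons share the 3 control arrays, so these counts are not independent of each other. Over all 9023 probe sets the medians were -0.03 to 0.01.

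GstE6, the Epsilon gene with the highest mean value, stood at 10.40 ± 0.04 in starvation selected and 10.14 ± 0.17 in control lines (SD, n = 3 each), with the other regimes between 10.15 and 10.26. Its starvation selected lines had 10.44, 10.38 and 10.38 and its control lines 10.25, 9.94 and 10.24, without overlap. In that comparison 15.4% of all tested probe sets had no overlap. GstE6 was not called there, and its adjusted p in the F test over the 8 groups was 0.753. GstE8 had values of 7.83, 7.58 and 7.64 in starvation selected lines, against 7.32, 7.41 and 7.45 in control lines, and its change was 0.29 ± 0.13 (adjusted p = 0.512). GstE2 in starvation selected lines had a change of 0.42 ± 0.19 (adjusted p = 0.520), with 1 line far above the others.

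GstE1, next to GstE2, had its lowest group mean in the knock-down selected lines. It stood at 7.60, 8.59 and 7.87 there, against 8.21, 9.00 and 8.68 in control lines, and the groups overlapped. The GstE1 change against the other 6 regimes was -0.50 ± 0.23 (adjusted p = 0.996). Its pooled SD of 0.40 was above that of 97.7% of tested probe sets. GstE7, GstE9, GstE10, GstE11 and GstE13 had group means that spanned 0.18 to 0.38. GstE10 was near the floor of the filter, with values above 4 on 19 of the 24 arrays. Its lowest value, 3.43, was that of control line 2, which enters every GstE10 change against control.

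The group means of the Omega, Theta and Zeta members lay close together. GstO2 has 3 probe sets, and their group means spanned 0.06, 0.23 and 0.23. The brightest of them had means of 9.54 ± 0.04 in heat selected, 9.38 ± 0.11 in constant 30, 9.62 ± 0.04 in cold selected, 9.48 ± 0.11 in longevity selected, 9.50 ± 0.09 in knock-down selected, 9.49 ± 0.06 in starvation selected, 9.54 ± 0.10 in desiccation selected and 9.49 ± 0.04 in control lines (SD, n = 3 each). The 3 probe sets did not vary together, with correlations of -0.18 to 0.12 over the 24 arrays after removal of group means. GstO1 spanned 0.21 between its lowest and highest group mean. GstO3 varied more, at 7.85 ± 0.18 in knock-down selected and 7.42 ± 0.42 in control lines (SD, n = 3 each), where control line 3 (7.87) lay within the range of the knock-down selected lines and control lines 1 and 2 below it.

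Among the Theta genes, GstT4 had values of 8.76, 8.61 and 8.86 in knock-down selected lines and 8.21, 8.49 and 8.61 in control lines. The change was 0.31 ± 0.10 (adjusted p = 0.245). GstT2 and GstT3 had group means within 0.08 and 0.17 of each other. GstZ1, a maleylacetoacetate isomerase, had means of 6.82 to 7.03 over the 8 groups, and GstZ2 of 4.45 to 4.59. In both Zeta genes the largest spread was among the longevity selected lines, at 6.72, 7.18 and 7.18 for GstZ1 and 4.27, 4.69 and 4.40 for GstZ2.

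**Figure D3:**
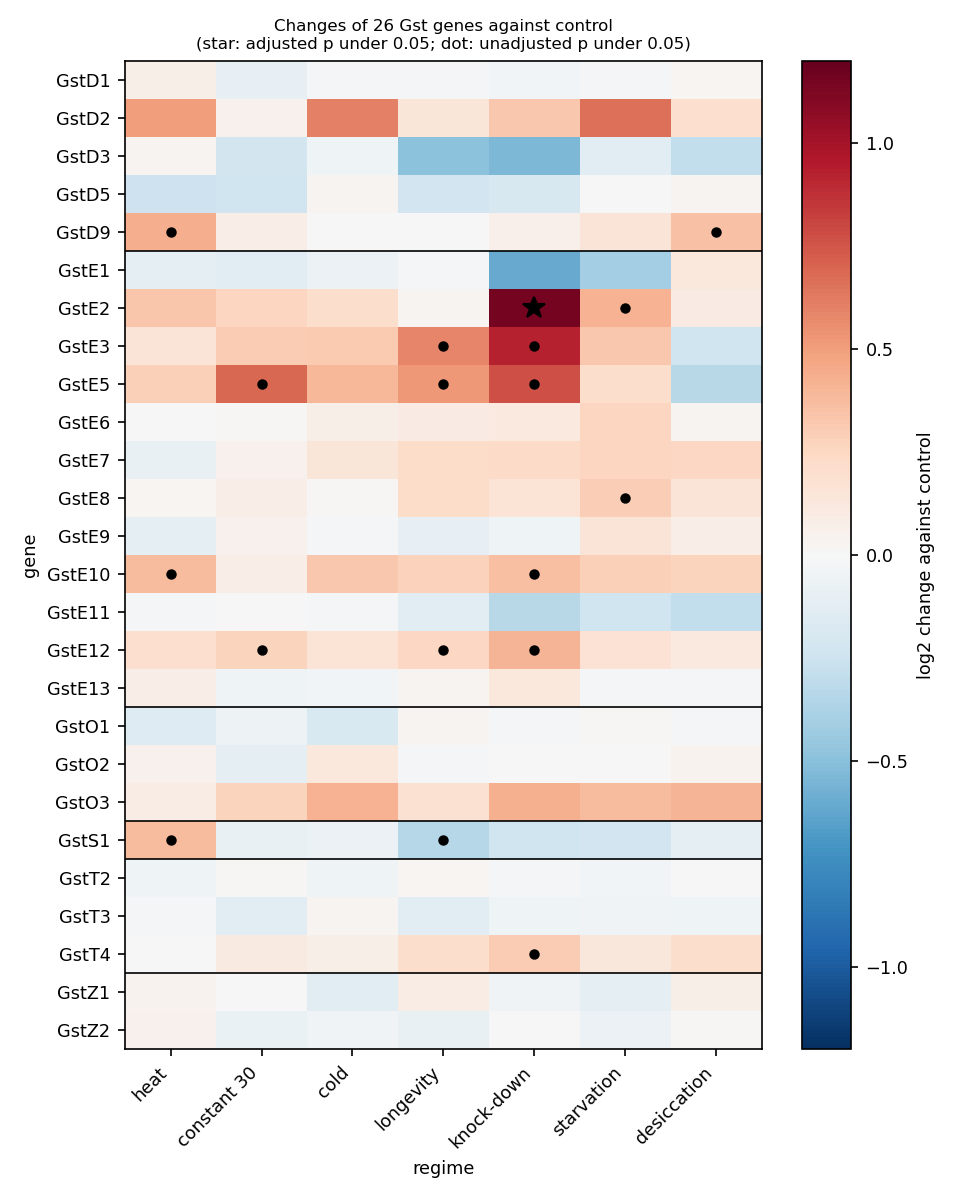
Log2 change against control (colour) of 26 GST genes (rows, by subfamily, 1 probe set a gene) in the 7 regimes (columns); a star marks an adjusted p under 0.05 and a dot an unadjusted p under 0.05. The single star is GstE2 in knock-down selected lines, at 1.14.

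Over the whole family the median change was close to 0 in every regime. The median change of the 26 genes against control was 0.05 in heat selected, 0.02 in constant 30, 0.02 in cold selected, 0.03 in longevity selected, 0.04 in knock-down selected, 0.07 in starvation selected and 0.04 in desiccation selected lines. Of the 26 genes, 18 were above 0 in heat selected lines and 18 in desiccation selected lines, and 14 to 16 in the other regimes. Over all tested probe sets 53.5% were above 0 in heat selected lines and 39.8% to 43.6% in the other regimes.

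The number of members whose 3 lines did not overlap with control was read against the share over all probe sets. There was 1 of 28 in heat selected lines (GstE2, higher), against 23.4% of all tested. Constant 30 lines had 2 (GstE3 and GstE5, higher), against 13.1%. Cold selected lines had 4 (GstD2, GstE3 and the brightest GstO2 probe set higher, GstO1 lower), against 11.1%. The other 2 GstO2 probe sets overlapped with control there.

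Longevity selected lines had 3 (GstE3 and GstE8 higher, GstS1 lower), against 12.8%. Starvation selected lines had 4 (GstD2, GstE3, GstE6 and GstE8, higher), against 15.4%, and desiccation selected lines had 2 (GstD9 higher, and the dimmest GstO2 probe set lower), against 17.0%. The changes of the other 2 GstO2 probe sets there were 0.04 and 0.05, against -0.13 for the dimmest. The share of GSTs without overlap was 14.3% at most in these 6 regimes. GstE3 was among them in 4 of the 6, all of which were set against the same 3 control lines.

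In knock-down selected lines against the other 6 regimes 6 of the 28 GSTs had an unadjusted p under 0.05, where 3.62% of all tested did. GstE2, GstE3, GstE5, GstE12 and GstT4 were on the higher side and GstE1 on the lower, and GstE2 alone passed the adjustment. In heat selected lines there were 3 (GstD9 and GstS1 higher, GstT4 lower), against 31.1%. Constant 30, cold, longevity and starvation selected lines against the other 6 regimes had no probe set called (0% of all), and 2, 1, 3 and 0 GSTs at an unadjusted p under 0.05, against 5.76%, 4.89%, 6.46% and 4.05% of all tested.

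In constant 30, cold, longevity and starvation selected lines against control limma called 0% of all probe sets and no GST. At an unadjusted p under 0.05 there were 2 of 28 GSTs in constant 30 (6.98% of all tested), 0 in cold selected (7.9%) and 2 in starvation selected lines (9.21%). Desiccation selected lines had no GST called, where 0.0776% of all were, and 1 at an unadjusted p under 0.05 (7.17%). For the mean of the 7 regimes against control no probe set was called (0% of all), and 4 GSTs had an unadjusted p under 0.05, all Epsilon (GstE2, GstE5, GstE10 and GstE12), against 10.9% of all tested and 5.74% on the higher side. An F test over the 8 groups called no GST and 0.0554% of all probe sets. The smallest adjusted p there were 0.103 (GstE2), 0.122 (GstE5) and 0.125 (GstS1), and 5 GSTs had an unadjusted p under 0.05, where 15.4% of all tested did.

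**Figure D4:**
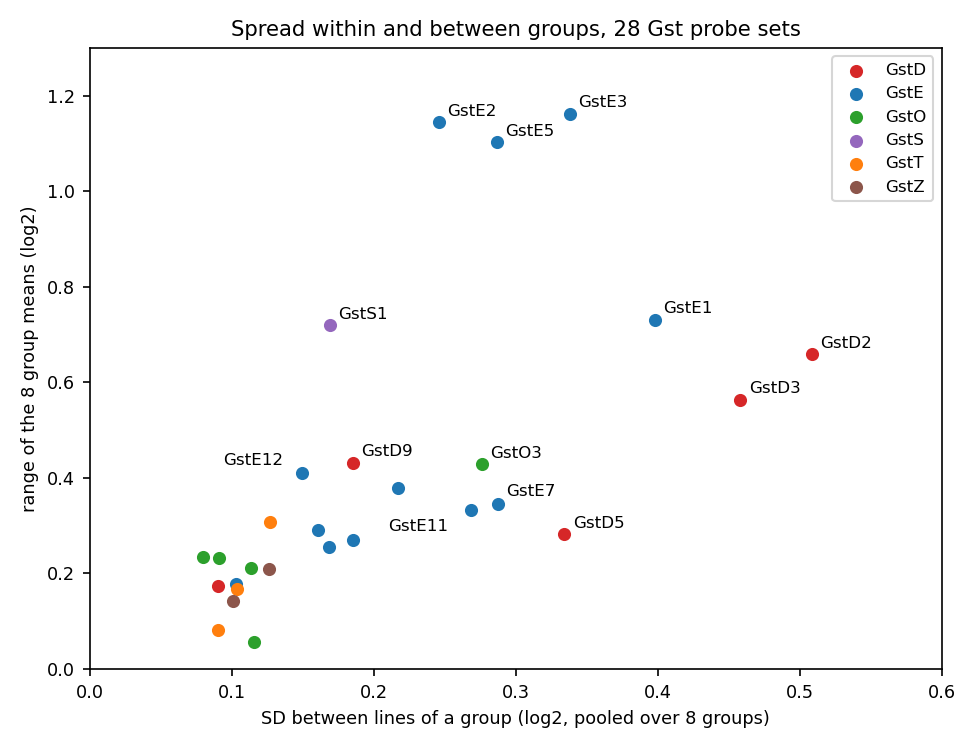
Range of the 8 group means (vertical axis, log2) against the pooled SD between lines of a group (horizontal axis, log2) for the 28 tested GST probe sets, coloured by subfamily. GstE2, GstE3 and GstE5 have the largest ranges, 1.10 to 1.16, and GstD2 and GstD3 the largest SDs, 0.51 and 0.46.

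Members differed in how far lines of the same group varied, as the plot of range against spread shows. The range of group means was 1.16 for GstE3, 1.14 for GstE2 and 1.10 for GstE5, then 0.73 for GstE1 and 0.72 for GstS1. GstE2 and GstE3 had nearly the same range, but the pooled SD was 0.25 for GstE2 and 0.34 for GstE3. These 3 Epsilon genes and GstS1 had ranges over 3 times their pooled SD, while GstD2 and GstD3 had ranges close to it.

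The variation among lines of the same group was then compared between members, as correlations over the 24 arrays after removal of group means, for 378 pairs of probe sets. GstD1 and GstD3 gave Pearson's r = 0.73 and Spearman's rho = 0.72 (permutation p = 0.00036 and 0.00158, adjusted over the pairs 0.136 and 0.299). Leaving out the 2 arrays farthest from the median of GstD1 left r at 0.73. GstE3 and GstE5 gave r = 0.72 and rho = 0.74 (permutation p = 0.00137 and 0.00096, adjusted 0.259 and 0.299), and r = 0.62 without the 2 farthest arrays. No pair passed the adjustment.

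Of the 378 pairs, 54 were members of 1 run of neighbours, with a median r of 0.18. The 33 pairs of 1 subfamily at different places had a median of 0.17, and the 288 pairs of different subfamilies one of 0.04. The arrays share their normalization, and neighbours can share probe signal, so these values are descriptions. GstE2 and GstE3, next to each other, had an r of 0.00.

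**Figure D5:**
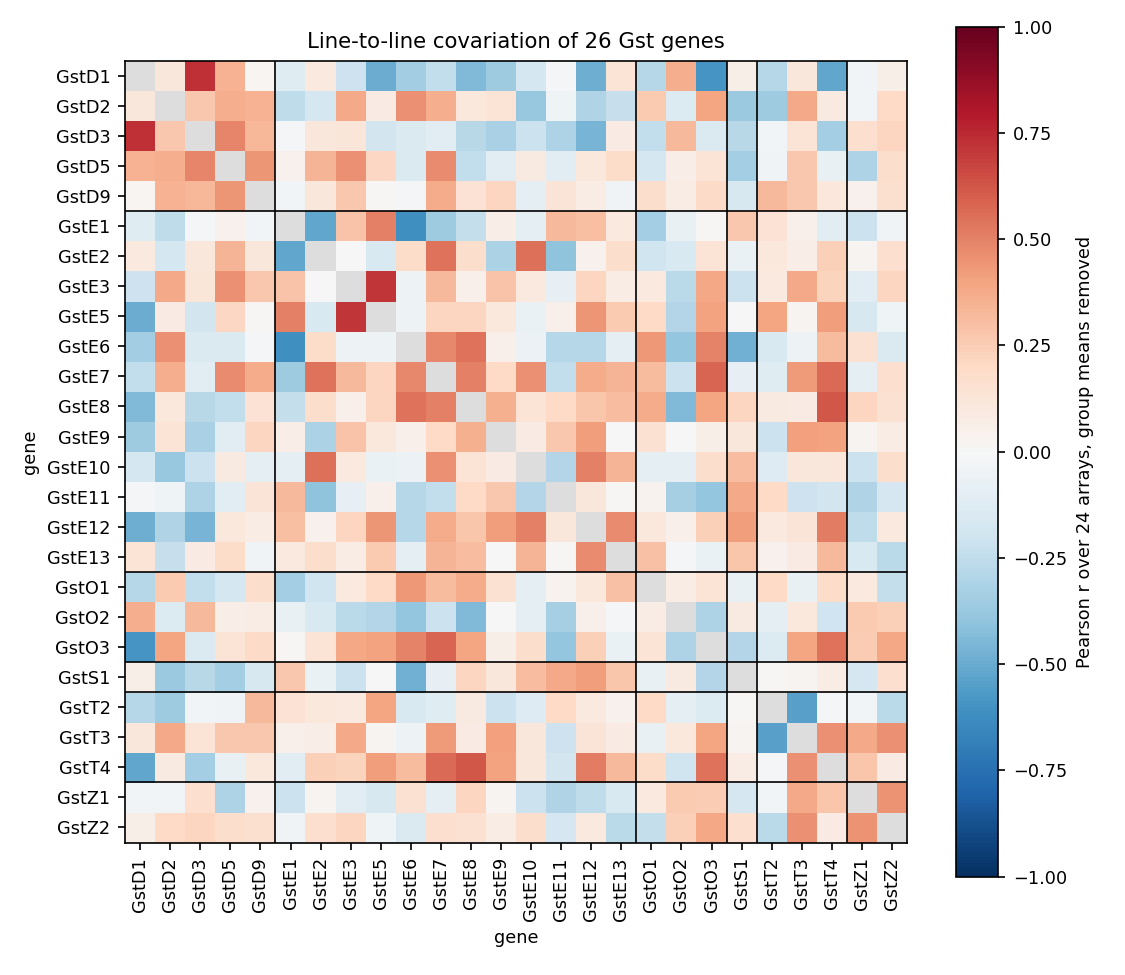
Pearson's r (colour) between 26 GST genes (rows and columns, by subfamily) over 24 arrays after removal of group means. The strongest positive pairs are GstD1 with GstD3, r = 0.73, and GstE3 with GstE5, r = 0.72.

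Genes that supply glutathione, carry related folds or regulate the response to foreign compounds were taken from 3 lists. Of 14 listed genes of glutathione synthesis and recycling 8 were tested, and none passed the limma test against control in any regime. At an unadjusted p under 0.05 there was 1 (Men, in heat selected lines), where 20.5% of all tested were. In heat selected lines against the other 6 regimes 2 of the 8 rose, where 11.1% of all tested were called: Trxr1, the thioredoxin reductase that stands in for glutathione reductase in flies, by 0.30 ± 0.07 (adjusted p = 0.0178), and Idh, an isocitrate dehydrogenase that makes NADPH, by 0.18 ± 0.06 (adjusted p = 0.0455). That comparison had 998 probe sets called as reported and 2 with the muscle covariate, with the 3′ minus 5′ covariate or without heat selected line 2, and the tissue and 3′ minus 5′ differences of the heat selected lines given above apply here too. Men, malic enzyme, had a change of -0.42 ± 0.12 in heat selected lines against control (adjusted p = 0.0606).

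Of 10 genes with a GST fold or a role in conjugate export 9 were tested. In heat selected lines 1 of the 9 rose against control, where 2.84% of all tested were called: eEF1gamma, a translation elongation factor subunit with a GST-like domain, by 0.25 ± 0.07 (adjusted p = 0.0486). Against the other 6 regimes 2 of the 9 rose, beside 11.1% of all tested. Mgstl, the microsomal GST-like gene, changed by 0.30 ± 0.08 (adjusted p = 0.0264) and eEF1gamma by 0.16 ± 0.05 (adjusted p = 0.0495). In knock-down selected lines against control none of the 9 passed, and 2 had an unadjusted p under 0.05, where 10.4% of all tested did. The smallest was that of Mdr49, an ABC transporter, with a change of 0.52 ± 0.17 (adjusted p = 0.214).

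Of 7 regulators 5 were tested, and none passed in any comparison. Their smallest p in knock-down selected lines against control was that of Hr96, a nuclear receptor for foreign compounds, at -0.15 ± 0.09 (adjusted p = 0.566). The cap'n'collar factor cnc, which drives GstD1 under oxidative stress, had a change of -0.17 ± 0.07 in heat selected lines against the other 6 regimes (adjusted p = 0.125).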

How the data were processed

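Total RNA of 24 lines was hybridised to Affymetrix arrays, per the labels' protocols, and the deposited log2 values were made with GCRMA, per the submitters' processing notes. Its settings and any filter applied are unknown from these sources. Of 14010 probe sets, 44 array controls were left out. Platform annotation named 1 gene for 12443 of the others, several for 327 and none for 1196. No further normalization was applied. Probe sets above 4 on at least 3 of the 24 arrays entered 1 fit with limma 3.58.1 (R 4.3.3) over the 8 groups, with 16 residual degrees of freedom and two-sided moderated tests, with Benjamini-Hochberg adjustment inside each comparison. Each regime was set against control and against the mean of the other 6 regimes. The fit was tested on simulated data. Correlations used 100000 permutations within groups (Python 3.11.15, numpy 2.4.6). GCRMA pulls dim probe sets towards a common floor, which narrows their differences. The number of arrays limits the precision.

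Any member could be named. Values in all groups were given for members called in a comparison. For the 2 with the smallest F-test p in each subfamily and for the brightest of each subfamily, values were given in all groups, in some of the groups or as ranges. GstD2, GstD9, GstE5 and GstT4 were shown in some of the groups only. Genes outside the family came from lists, those called or with the smallest p. Where a gene had several probe sets, the brightest stood for it in medians. The members and lists were chosen with earlier results of these data known. Alternatives were other filters, normalizations, weights, priors, subsets, a replicate block and each line left out, and 2 covariates were chosen after seeing the data. Gene neighbours came from RefSeq names of Release 6.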

Additional observations from a re-analysis of the deposited data

Results flagged for a closer look

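GstE2 differed in knock-down selected lines from the mean of the other 6 regimes by a log2 change of 0.92 (limma adjusted p = 0.0260), higher in 3 of 3 lines, and all 3 were above every line of the other 6 regimes. GstS1 differed in heat selected lines from the mean of the other 6 regimes by a log2 change of 0.56 (adjusted p = 0.00962), with 2 of the 3 heat selected lines above every line of the other 6 regimes and the third, at 10.08, below the highest cold selected line. Both were singled out because the effect of 1 regime differed from that of the others by a test of the difference. No group had more than 3 lines, so single lines were not tested as outliers.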

How the results depend on the processing

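In the 3 comparisons with a called GST, 24 of 79 recomputed counts moved by over 1.5 times. In the others, where the reported count was 0, 9 of 321 moved. In knock-down selected lines against control no member was called with a floor of 6, which leaves GstE2 untested, or with the fit on the compared arrays alone (GstE2 1.14, adjusted p = 0.151), and 0 to 3 were when each line was left out. Against the other 6 regimes the knock-down count was 0 with the floor of 6, with the arrays of the regimes alone (adjusted p = 0.0563) and with the 3′ minus 5′ covariate (adjusted p = 0.0821), and 0 to 1 with a line left out (GstE2 0.84 to 1.02). Left out 1 at a time, constant 30 line 3, knock-down selected lines 1, 2 and 3, starvation selected line 1 and desiccation selected line 2 ended that call. In heat selected lines against the other 6 regimes where 11.1% of all probe sets were called, the count was 5 with no filter (GstD6, GstD9, GstD11, GstE4 and GstS1; 2793 of 13966 called in all), 2 with array weights (GstD9 and GstS1; 6.59% of all), 0 with the muscle or the 3′ minus 5′ covariate (0.0222% of all), and 0 to 2 with a line left out. Against control heat selected lines gave 0 to 1 with a line left out, the F test 0 to 1 and, with array weights, 2 (GstE2 and GstE5; 0.532% of all). In desiccation selected lines against the other 6 regimes array weights gave 1 (GstE5; 0.366% of all) and lines left out 0 to 1. The mean of the 7 regimes gave 0 to 1, GstE12 without control line 3 (0.38, adjusted p = 0.0217; 2.96% of all). The family median in starvation selected lines was -0.0247 with no filter, which adds the 8 dim members, and 0.07 as reported. For GstO2 the other probe sets turned the direction, to 0.0278 from -0.14 in constant 30 lines and to -0.0263 and -0.0347 from 0.17 in longevity selected lines, each against the other 6 regimes. The cause of these differences was not tested.

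The replicate block left 0 GSTs called in knock-down selected lines against the other 6 regimes (GstE2 adjusted p = 0.0708) and gave 1 in desiccation selected lines (GstE5, adjusted p = 0.0467). Same-numbered lines of different groups had correlations of deviations of -0.35 to 0.56 (median 0.07, 34 of 84 above 0.1). For 15 of the 24 arrays the mean correlation with lines of other groups was highest for their own number. Differently numbered lines had a median of -0.02, with 40 of 168 above 0.1. These values hint at some sharing between same-numbered lines. The labels tie the numbers to no shared batch or day, so the results reported do not use the block.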
